A study of Mus musculus with 16 samples.

Results

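The genes described here are 9 transcription factors and cofactors known to respond to glucocorticoids: Zbtb16, Hr, Tsc22d3, Klf9, Klf15, Mxd4, Cebpd, Foxo1 and Foxo3. They were chosen by name and with the rise of most of them after dexamethasone (DEX) in these same libraries already known, so their DEX values are given as a description, without a test. Of the 9, 8 were found among the 14504 genes of the expression table, and Cebpd was not analysed here. The values come from the dorsal raphe nucleus (DRN), the main serotonergic nucleus of the midbrain, of adult male C57BL/6 mice, with 16 libraries in 6 groups. All mice carried the same genetic background and all were injected, either with saline or with DEX at 2 mg/kg, and the tissue was taken 6 h later. Controls had no defeat experience and were represented by 3 saline and 3 DEX libraries. Stressed mice went through 30 days of chronic social defeat and were then sorted by their own behavior into a passive coping strategy (PS, 2 saline and 3 DEX libraries) and an active coping strategy (AS, 3 saline and 2 DEX libraries), so that the phenotypes are behavioral clusters and not assigned treatments. The DRN was punched from frozen cryosections and the study left out DEX libraries of PS and AS mice in which Tph2 was low, and further libraries that it describes are not analysed here. Each value is an average over all cell types of the punch, and in such tissue fewer cells of a type and less RNA per cell cannot be told apart.

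DEX is a synthetic agonist of the glucocorticoid receptor, which enters the nucleus after binding its ligand and changes transcription at response elements or through other factors. Several of the genes that it switches on encode regulators themselves, so that a hormone pulse is passed on through repressors, corepressors and metabolic transcription factors. Zbtb16 encodes PLZF, a BTB zinc finger repressor, and Hr encodes hairless, a corepressor of nuclear receptors that works with histone deacetylases. Tsc22d3 encodes GILZ, a leucine zipper protein that binds and restrains inflammatory transcription factors. Klf9 and Klf15 are Krüppel-like zinc finger factors, the former known from hormone responses of neurons and the latter from amino acid catabolism. Mxd4 is a partner of MAX that opposes MYC at E-boxes, and Foxo1 and Foxo3 are forkhead factors held in the cytoplasm by insulin and AKT signaling, with targets in cell cycle arrest, autophagy and fuel use.

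The promoter windows of the members are shown because these proteins and the glucocorticoid receptor bind short DNA words, some of which lie at the start sites of other members. RefSeq windows on GRCm38.p6, reaching from 250 bases before to 50 bases after a transcription start, were found for 6 of the members (8 windows, 3 of them of Tsc22d3). Each was searched on both strands for the glucocorticoid response element GAACANNNTGTTC, for AGAACA (a single arm of that element with the base before it), for the E-box CACGTG read by MAX dimers, for the FOXO word GTAAACA, for the KLF word CCACCC and for the C/EBP word TTGCNNAA. A match is only a match of letters, and these windows hold no distal elements. The 4 windows below carry the matches that bear on members of the set, with matched bases in capitals. The one of Tsc22d3 lies at chrX:140600473-140600772 on the minus strand, that of Klf9 at chr19:23140976-23141275 on the plus strand, that of Klf15 at chr6:90462326-90462625 on the plus strand and that of Mxd4 at chr5:34187661-34187960 on the minus strand.
Tsc22d3: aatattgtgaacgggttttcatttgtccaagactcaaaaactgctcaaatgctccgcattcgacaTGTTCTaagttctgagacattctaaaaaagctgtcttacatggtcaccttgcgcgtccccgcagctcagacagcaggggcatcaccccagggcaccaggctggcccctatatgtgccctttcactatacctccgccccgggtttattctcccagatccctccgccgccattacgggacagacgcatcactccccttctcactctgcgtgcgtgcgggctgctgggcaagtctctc
Klf9: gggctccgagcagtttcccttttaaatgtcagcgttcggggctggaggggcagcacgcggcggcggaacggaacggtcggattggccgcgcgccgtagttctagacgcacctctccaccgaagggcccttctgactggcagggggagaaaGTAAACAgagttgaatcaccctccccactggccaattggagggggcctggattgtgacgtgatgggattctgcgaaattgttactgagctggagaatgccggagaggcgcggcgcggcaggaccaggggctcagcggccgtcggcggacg
Klf15: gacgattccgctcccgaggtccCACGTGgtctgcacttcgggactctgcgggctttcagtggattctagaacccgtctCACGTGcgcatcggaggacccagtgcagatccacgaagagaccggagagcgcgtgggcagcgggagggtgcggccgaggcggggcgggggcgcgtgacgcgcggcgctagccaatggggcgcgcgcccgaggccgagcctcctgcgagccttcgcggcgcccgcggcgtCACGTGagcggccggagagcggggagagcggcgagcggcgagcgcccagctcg
Mxd4: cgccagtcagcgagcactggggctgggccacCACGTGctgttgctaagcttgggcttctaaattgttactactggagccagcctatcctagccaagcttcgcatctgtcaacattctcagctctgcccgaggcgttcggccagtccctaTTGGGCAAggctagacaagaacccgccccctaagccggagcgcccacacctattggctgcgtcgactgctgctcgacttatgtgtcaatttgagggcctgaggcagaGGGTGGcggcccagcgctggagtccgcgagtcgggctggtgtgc

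The full glucocorticoid response element occurred in 0.0579% of all 32841 windows and in none of the 8 windows of 6 members. No window is given for Zbtb16, Hr and Cebpd. Of the 3 Tsc22d3 windows, the one shown held the AGAACA word on its other strand, 185 bases before the start, and the others did not. Over all windows, 19.0% held that word. Klf15, a metabolic KLF factor, had 3 E-boxes at 228, 172 and 3 bases before its start, whereas 7.15% of all windows had at least 1 and 0.0883% had 3 or more. Mxd4, whose protein binds E-boxes together with MAX, had 1 E-box 219 bases before its start, together with 1 C/EBP word (10.8% of all windows) and 1 KLF word (31.5%). The Klf9 window had 1 FOXO word 100 bases before the start, which 3.65% of all windows have. Another Tsc22d3 window had 1 KLF word, and the windows of Foxo1 and Foxo3 had none of the words searched.

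All libraries were deep, with 38207157 to 62447298 reads in the listed genes, so that each member rested on 552 to 8254 reads per library. The serotonin neuron markers Tph2 (91764 to 182191 normalized counts), Slc6a4 (74627 to 129820) and Fev (3483 to 9636) were high in every library. A normalized count is the number of reads of a gene divided by the size factor of its library. Overlap with another annotated gene touched 3 members on GRCm38: the antisense gene Gm42846 lies over Mxd4, the antisense Gm20402 and the unclassified Gm38034 over Foxo1, and the microRNA gene Mir1192 inside Klf9. None of these is among the listed genes, and reads of both strands may be joined in the values of Mxd4 and Foxo1, since the use of strand in counting is not given in the sources used here.

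Of the repressors, Zbtb16 (ENSMUSG00000066687.5, chr9:48654297-48836222, minus strand) was low after saline and high after DEX. In controls it stood at 584, 696 and 989 normalized counts after saline and at 3298, 3470 and 4540 after DEX. In PS mice the values were 1088 and 1195 after saline and 3887, 4016 and 4441 after DEX. In AS mice they were 622, 793 and 803 after saline and 3363 and 4018 after DEX. Every DEX library lay far above every saline library (the share over all genes follows below). Both PS saline libraries were the highest of the 8 saline libraries, a pattern whose share over all genes was not counted. The log2 fold change of DEX over saline came to 2.34 ± 0.18 (SE) for controls, 1.85 ± 0.20 for PS and 2.32 ± 0.20 for AS, which is a 5.05-fold difference in controls and a 3.60-fold one in PS.

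Hr (ENSMUSG00000022096.14, chr14:70552212-70573548, plus strand), the corepressor, differed between treatments by a like factor. It was found at 718, 917 and 1152 normalized counts in control saline libraries and at 2670, 4146 and 4518 in control DEX libraries. PS saline libraries had 998 and 1212, and PS DEX libraries 4112, 4604 and 4785. AS saline libraries had 687, 1107 and 1175, and AS DEX libraries 4427 and 4485. The treatments did not overlap, while the spread was wide among controls given DEX, where the library con_dex_116 was the low one, and among AS saline libraries, where AS_sal_40 was low. The log2 fold changes were 2.01 ± 0.23 (SE) in controls, 2.03 ± 0.25 in PS and 2.21 ± 0.25 in AS.

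**Figure D1:**
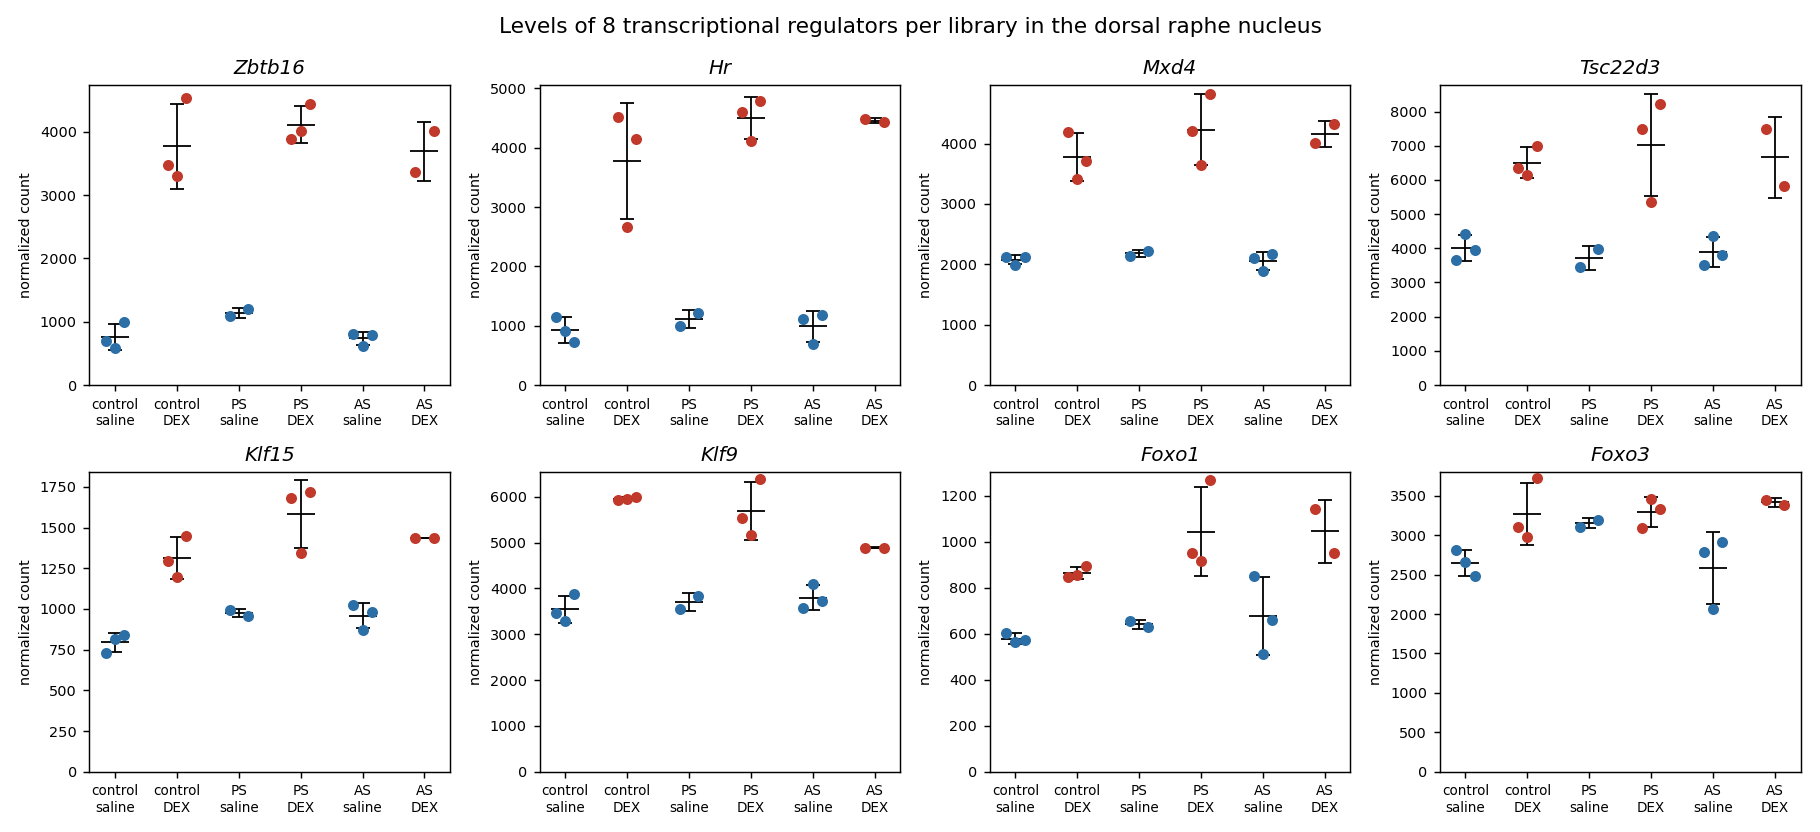
Normalized counts of the 8 members in all 16 libraries by group, on linear axes from 0: points are libraries (blue saline, red DEX) and black lines the group mean ± SD. The 8 DEX libraries of Zbtb16 and Hr (2670 or more) lie far above their 8 saline libraries (1212 or less), whereas the Foxo1 and Foxo3 ranges of the treatments meet.

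Tsc22d3 (ENSMUSG00000031431.13, chrX:140539528-140600659, minus strand), which encodes GILZ, started from a much higher level. Control libraries held 3651, 3952 and 4407 normalized counts after saline and 6151, 6360 and 7005 after DEX. PS libraries held 3466 and 3973 after saline and 5355, 7491 and 8232 after DEX. AS libraries held 3499, 3805 and 4359 after saline and 5824 and 7489 after DEX. No saline library reached a DEX library, and the stressed DEX libraries spread more widely (SD 1494 in PS and 1177 in AS, n = 3 and n = 2) than the control ones (SD 445, n = 3). The log2 fold changes were 0.70 ± 0.15 (SE) in controls, 0.90 ± 0.17 in PS and 0.77 ± 0.17 in AS.

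Mxd4 (ENSMUSG00000037235.13, chr5:34173883-34187720, minus strand), the MAX partner, varied little among saline libraries. Its control libraries gave 1993, 2113 and 2128 normalized counts after saline and 3410, 3716 and 4199 after DEX. PS gave 2140 and 2227 after saline against 3647, 4211 and 4826 after DEX. AS gave 1886, 2106 and 2174 after saline against 4007 and 4318 after DEX. All 8 saline values fell between 1886 and 2227 and all 8 DEX values between 3410 and 4826. The corresponding log2 fold changes were 0.86 ± 0.11 (SE), 0.94 ± 0.12 and 1.02 ± 0.12 in controls, PS and AS.

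Of the Krüppel-like factors, Klf9 (ENSMUSG00000033863.2, chr19:23141226-23168134, plus strand) was the more abundant. Control values were 3293, 3460 and 3876 normalized counts after saline and 5932, 5949 and 5997 after DEX. PS values were 3560 and 3834 after saline and 5160, 5540 and 6389 after DEX. AS values were 3568, 3730 and 4095 after saline and 4881 and 4893 after DEX. The saline libraries of all phenotypes shared 1 range, and after DEX the AS libraries were the lowest of the 8. DEX over saline gave a log2 fold change of 0.75 ± 0.09 (SE) in controls, 0.62 ± 0.10 in PS and 0.37 ± 0.10 in AS.

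Klf15 (ENSMUSG00000030087.11, chr6:90462576-90475238, plus strand) was lower and its groups were stacked differently. Controls had 730, 817 and 839 normalized counts after saline and 1196, 1292 and 1449 after DEX. PS mice had 956 and 991 after saline and 1346, 1684 and 1721 after DEX. AS mice had 872, 979 and 1025 after saline and 1435 and 1438 after DEX. The DEX libraries all lay above the saline libraries, and the control saline libraries were the lowest 3 of the 16. The log2 fold changes were 0.72 ± 0.12 (SE), 0.69 ± 0.13 and 0.59 ± 0.13 in controls, PS and AS.

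The forkhead genes were the remaining members. Foxo1 (ENSMUSG00000044167.6, chr3:52268336-52353221, plus strand) had 562, 571 and 604 normalized counts in control saline libraries and 847, 854 and 895 in control DEX libraries. In PS mice it had 627 and 655 after saline and 914, 949 and 1266 after DEX, and in AS mice 513, 660 and 852 after saline and 949 and 1143 after DEX. Within each phenotype the treatments were separate, but the highest AS saline library (852) exceeded the lowest control DEX library (847). Its log2 fold changes were 0.58 ± 0.17 (SE) in controls, 0.69 ± 0.19 in PS and 0.66 ± 0.19 in AS.

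Foxo3 (ENSMUSG00000048756.11, chr10:42181841-42276755, minus strand) had 2484, 2654 and 2813 normalized counts in control saline libraries and 2981, 3100 and 3721 in control DEX libraries. PS libraries had 3103 and 3196 after saline and 3094, 3330 and 3461 after DEX. AS libraries had 2067, 2788 and 2912 after saline and 3376 and 3451 after DEX. The PS arms overlapped, since both PS saline libraries were above the lowest PS DEX library, while the arms of controls and AS did not. The log2 fold change came to 0.30 ± 0.12 (SE) for controls, 0.06 ± 0.14 for PS and 0.41 ± 0.14 for AS, and the last fell to 0.26 without the low library AS_sal_40.

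**Figure D2:**
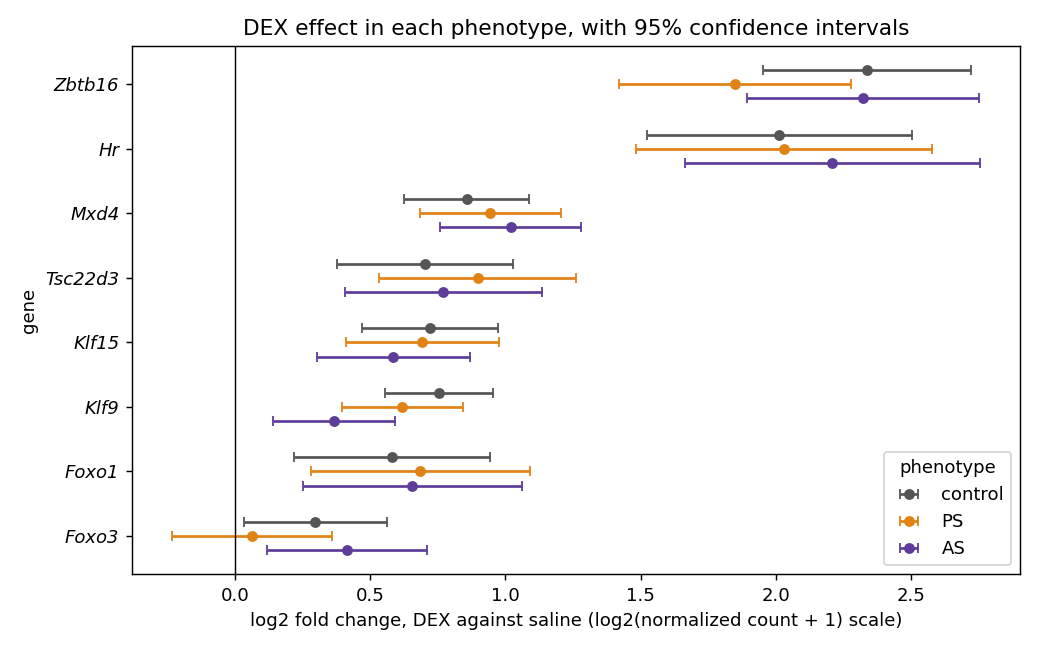
Log2 fold change of DEX over saline for each member in controls, PS and AS, on the log2(normalized count + 1) scale with 95% confidence intervals from the limma fit of all 16 libraries. Zbtb16 and Hr lie between 1.85 and 2.34, the other 6 members between 0.06 and 1.02.

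Read across phenotypes, the values that chose the members ran the same way in all 3. No overlap between DEX and saline, with DEX higher, was seen for 8 of 8 members in controls (8.51% of all genes), 7 of 8 in PS (11.2%) and 8 of 8 in AS (15.1%). All 8 DEX libraries exceeded all 8 saline libraries for 6 of 8 members, all but Foxo1 and Foxo3, as they did for 1.37% of all genes. The members' median log2 fold change reached 0.74 for controls, 0.80 for PS and 0.71 for AS, and that of all genes was 0.00, 0.00 and -0.01. These counts follow from the choice of the genes and nothing is read from them. Averaged over the 3 phenotypes the order of the log2 fold changes was Zbtb16 (2.17 ± 0.11, SE), Hr (2.08 ± 0.14), Mxd4 (0.94 ± 0.07), Tsc22d3 (0.79 ± 0.09), Klf15 (0.67 ± 0.07), Foxo1 (0.64 ± 0.11), Klf9 (0.58 ± 0.06) and Foxo3 (0.26 ± 0.08).

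Levels can be set beside each other between genes only per length, here normalized counts per kb of exon. After saline the median level was 893 per kb for Tsc22d3, 758 for Klf9, 370 for Foxo3, 327 for Klf15, 250 for Mxd4, 152 for Hr, 151 for Zbtb16 and 71.1 for Foxo1. Neighbours in that order overlapped over the 8 saline libraries, except that Klf9 was clear of Foxo3, Mxd4 of Hr, and Zbtb16 of Foxo1. After DEX the medians were 1539 per kb for Tsc22d3, 1191 for Klf9, 748 for Zbtb16, 644 for Hr, 515 for Klf15, 484 for Mxd4, 443 for Foxo3 and 107 for Foxo1. Zbtb16 and Hr thus stood, by median, above only Foxo1 after saline and behind only Tsc22d3 and Klf9 after DEX. Over the 8 DEX libraries neighbours in the order overlapped, Zbtb16 (624 to 859 per kb) and Hr (386 to 692) as well as Hr and Klf15 (428 to 617) among them, except that Klf9 was clear of Zbtb16 and Foxo3 of Foxo1.

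Whether the coping phenotypes differed in their DEX response was asked with the difference between DEX effects. These differences are built from the DEX effects that the members were chosen with, so they are not independent of that choice. None of the 24 member differences passed the threshold in limma with Benjamini-Hochberg adjustment over all genes (adjusted p of 0.869 to 0.9996), and DESeq2 and edgeR on the whole reads also called none. The background was 0.0% of all genes called in each of the 3 interactions. At an unadjusted p under 0.05 there was 1 member difference, against 2.1% of all genes for PS minus controls, 4.02% for AS minus controls and 2.9% for AS minus PS. That member was Klf9, whose log2 fold change was 0.39 lower in AS than in controls (-0.39, SE 0.14, 95% interval -0.69 to -0.09, limma adjusted p = 0.941). Its control DEX libraries (5932 to 5997) were all above the AS DEX libraries (4881 and 4893), as held for 14.9% of all genes. The same libraries enter the difference, so their order is not a separate observation.

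The other differences had intervals that include 0. For Zbtb16 the PS response was smaller than the control one by -0.49 (95% interval -1.06 to 0.09, and -0.32 without con_sal_104) and the AS response larger than the PS one by 0.47 (-0.13 to 1.08). For Foxo3 the AS response exceeded the PS response by 0.35 (-0.07 to 0.77), which came to 0.20 without AS_sal_40. The intervals reached from 0.30 to 0.77 on either side of the estimate on the log2 scale, with 2 or 3 libraries a group. They are not adjusted, and the call over all genes is stricter. Klf9 in AS minus controls (-0.39) had an interval without 0 and was not called. Differences beyond these widths could therefore also be missed.

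Stress without DEX was examined next, in the saline libraries. Zbtb16, the BTB repressor, was higher in PS saline (1141 ± 75.8, SD, n = 2) than in control saline (757 ± 209, n = 3) and AS saline (740 ± 101.7, n = 3), and both PS libraries lay above all 6 others. Its log2 difference was 0.63 (SE 0.20, limma adjusted p = 0.571) against controls, and AS was lower than PS by -0.63 (SE 0.20, limma adjusted p = 0.728). Neither passed the threshold. Over all genes, 14.3% had both PS saline libraries above the controls and 12.7% had all AS saline libraries below PS. The share with both patterns at once was not counted. The same 2 PS saline libraries enter the DEX response of PS, so its smaller Zbtb16 value is not a separate observation. The difference from controls ranged from 0.46 to 0.84 over the alternatives and its adjusted p from 0.235 to 0.880.

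Klf15 was higher in both stressed phenotypes after saline. All 5 stressed saline libraries (872 to 1025) exceeded all 3 control saline libraries (730 to 839), which no other member showed and which held for 1.05% of all genes. The log2 difference was 0.29 (SE 0.13, limma adjusted p = 0.571) for PS and 0.27 (SE 0.12, limma adjusted p = 0.998) for AS, and AS and PS differed by -0.03 (95% interval -0.31 to 0.26). Foxo3 was also higher in PS saline (3150 ± 65.7, SD, n = 2) than in control saline (2650 ± 164, n = 3) with no overlap, by 0.25 (SE 0.14, limma adjusted p = 0.571), and AS saline was lower than PS saline by -0.30 (SE 0.14, limma adjusted p = 0.728), or by -0.14 without AS_sal_40.

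For PS against control saline 7 of 8 members had a positive log2 difference, with a median of 0.20 against 0.01 over all genes, and 5 of 8 (Zbtb16, Klf15, Mxd4, Foxo1 and Foxo3) had both PS libraries above all 3 control libraries, as did 14.3% of all genes. For AS against control saline 4 of 8 were positive and 1 of 8 (Klf15) was free of overlap on the high side (2.38% of all genes). For AS against PS saline Zbtb16 and Foxo3 were free of overlap on the low side (2 of 8 members, 12.7% of all genes).

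The same comparisons were then made in the DEX libraries. Foxo1 was the member whose 5 stressed DEX libraries (914 to 1266) all lay above the 3 control DEX libraries (847 to 895), as did those of 1.88% of all genes, with log2 differences of 0.25 (SE 0.17) in PS and 0.27 (SE 0.19) in AS and limma adjusted p-values of 0.9999 and 0.990. The Foxo1 differences fell to 0.11 without PS_dex_64 and to 0.13 without AS_dex_38. Klf15 was higher in PS DEX than in control DEX by 0.27 (SE 0.12, limma adjusted p = 0.9999), but its ranges overlapped. Klf9 was lower in AS DEX than in control DEX by -0.29 (SE 0.10, limma adjusted p = 0.990), without overlap (1 of 8 members, 14.9% of all genes on the low side), and it was the only member whose AS DEX libraries were also all below the PS DEX libraries (9.57% of all genes), by -0.22 (SE 0.10), or by -0.13 without PS_dex_64.

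In all, none of the 48 member tests of stress passed the threshold (lowest limma adjusted p 0.571), and none did with DESeq2 or edgeR. At an unadjusted p under 0.05 in limma there were 7 of the 48, the lowest p being 0.00685 for Zbtb16 in AS against PS saline. They fell on Zbtb16, Klf15, Foxo3 and Klf9 in comparisons that share libraries, so they are not 7 separate observations. Over all genes, the share under 0.05 was 7.67% for PS and 2.39% for AS against control saline, and 3.41% for AS against PS saline. For these comparisons after DEX, in the same order, it was 1.23%, 3.5% and 1.7%. The share called was 0.0% of all genes in 5 of these 6 comparisons and 0.00689% in AS against control DEX, where the 1 gene called, Gm11583, is no member and was looked up after its value was seen.

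**Figure D3:**
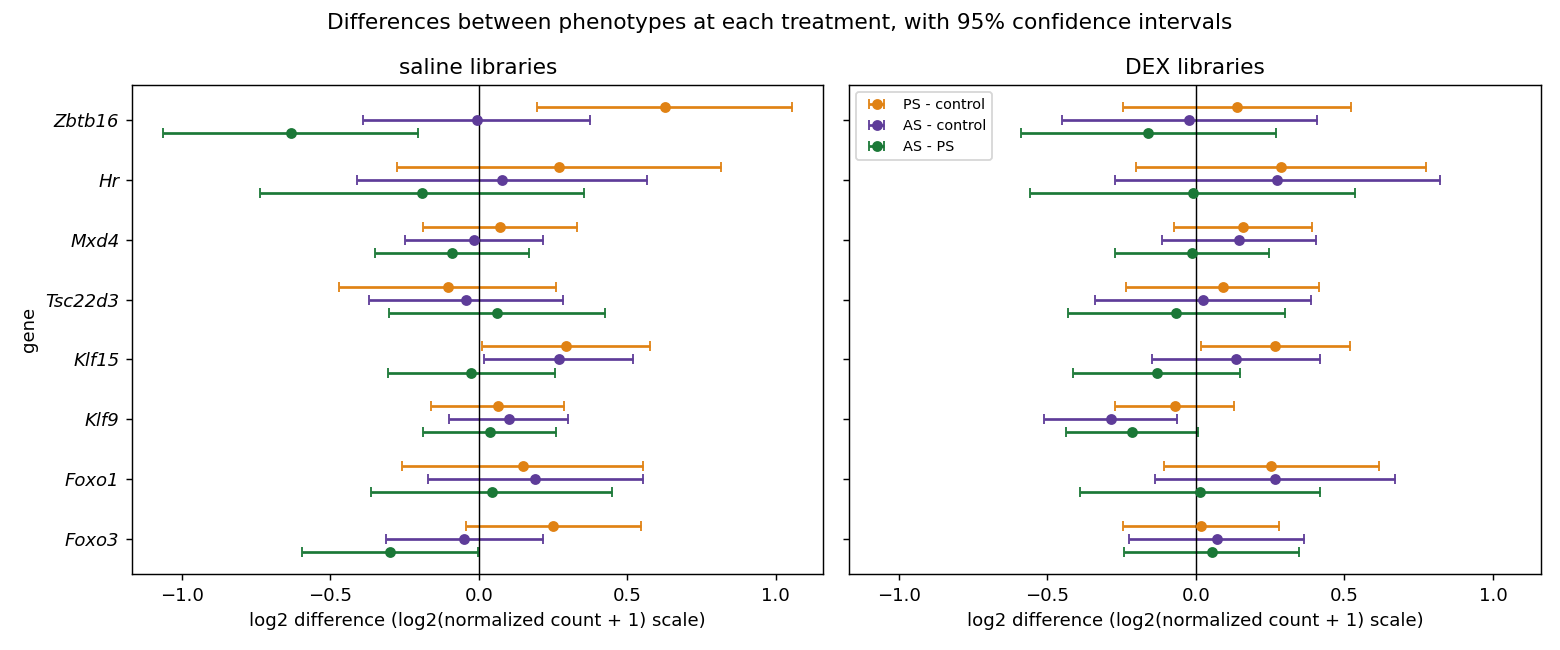
Log2 differences of the 8 members between phenotypes in the 3 saline and the 3 DEX comparisons, with 95% confidence intervals from the limma fit. Zbtb16 in PS saline sits at 0.63 over controls and Klf9 in AS DEX at -0.29 under controls, and none of the 48 tests passed adjustment over all genes.

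The relatives and known targets of the members were then counted in lists that held 117 measured genes. In the DEX effect averaged over phenotypes, 9 of them rose and 4 fell, while 2.78% of all genes rose and 1.53% fell. The lists were fixed with earlier results of these data known, so nothing is read from their counts against these shares. Of the 16 other KLF and SP factors, 1 rose and 1 fell. Klf13 rose from 2751 to 4585 (median 3577) normalized counts in the saline libraries to 5092 to 5829 (median 5275) in the DEX libraries, by 0.55 ± 0.07 (log2, SE, limma adjusted p = 0.000445). Klf16 fell by 0.40 on the log2 scale (SE 0.07, limma adjusted p = 0.00279), from 710 to 929 (median 808) to 543 to 690 (median 596). Neither gene's treatment ranges overlapped.

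The C/EBP list stood in for the family of Cebpd, and 1 of its 4 measured genes rose. Cebpa, a C/EBP factor known from liver, fat and myeloid cells, went from 124 to 186 (median 142) normalized counts after saline to 183 to 333 (median 250) after DEX, by 0.75 ± 0.13 (log2, SE, limma adjusted p = 0.00338), and its ranges met. Of 8 MAX network genes 1 rose, namely Mycl, a MYC paralog that pairs with MAX, by 0.50 ± 0.10 (limma adjusted p = 0.0126). Of 37 genes with a Zbtb symbol other than Zbtb16 (Zbtb8os and Zbtb11os1, which are opposite-strand genes and no BTB proteins, among them), Zbtb7b rose by 0.51 ± 0.09 (limma adjusted p = 0.00429) and Zbtb7c fell by 0.37 on the log2 scale (SE 0.10, limma adjusted p = 0.0749). Of 10 relatives and partners of Hr, 1 rose, the histone demethylase Kdm3a, by 0.33 ± 0.09 (limma adjusted p = 0.0632). The calls of Zbtb7c and Kdm3a were each lost in 10 of 23 alternatives, all of them the omission of a library, with log2 values of -0.42 to -0.33 and 0.28 to 0.38 and adjusted p-values up to 0.249 and 0.196 over all alternatives. Both were lost without con_dex_116, con_dex_122, con_sal_104, PS_sal_62, PS_sal_68, AS_dex_38, AS_dex_42 or AS_sal_14, Zbtb7c also without con_dex_101 or PS_dex_64, and Kdm3a also without PS_dex_34 or AS_sal_8.

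The FOXO and TSC22 relatives gave no calls. Foxo4 had 0.26 (SE 0.11, limma adjusted p = 0.301) and Foxo6, a FOXO gene of neurons, -0.11 (SE 0.21, limma adjusted p = 0.826). Tsc22d1 had 0.04 (SE 0.05), Tsc22d2 0.18 (SE 0.11) and Tsc22d4 0.23 (SE 0.07), the last with a limma adjusted p of 0.105 that passed in 5 of 23 alternatives. Among the receptors that bind DEX or its natural counterparts, the glucocorticoid receptor Nr3c1 fell by 0.54 on the log2 scale (SE 0.07, limma adjusted p = 0.000423), from 5704 to 7386 (median 6101) to 3760 to 5624 (median 4109) normalized counts. The mineralocorticoid receptor Nr3c2 fell by 0.36 on the log2 scale (SE 0.08, limma adjusted p = 0.0299). That call was lost without PS_sal_62 and without AS_dex_42, with log2 values of -0.41 to -0.32 and adjusted p-values up to 0.121 over all alternatives.

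Of 20 FOXO targets 3 rose and none fell, with a list median of 0.09 against 0.00 over all genes. Cdkn1a, the cyclin-dependent kinase inhibitor p21, rose the most, from 378 to 522 (median 458) to 2457 to 3599 (median 3121) normalized counts, by 2.77 ± 0.09 (log2, SE, limma adjusted p = 2.19e-10). Pdk4, a kinase that shuts pyruvate out of the citric acid cycle, rose by 0.75 ± 0.14 (limma adjusted p = 0.00602) and the stress sensor Sesn1 by 0.38 ± 0.07 (limma adjusted p = 0.00839). These genes have many regulators besides FOXO factors. Of 12 MYC and MAX targets none passed, and the 3 most abundant, Ldha, Ncl and Npm1, had -0.12 (SE 0.08), 0.05 (SE 0.07) and -0.07 (SE 0.10), with a list median of -0.08. Of 3 KLF15 targets 1 rose, Prodh, the first enzyme of proline breakdown, by 0.80 ± 0.13 (limma adjusted p = 0.00205), from 636 to 876 (median 758) to 976 to 2011 (median 1251).

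**Figure D4:**
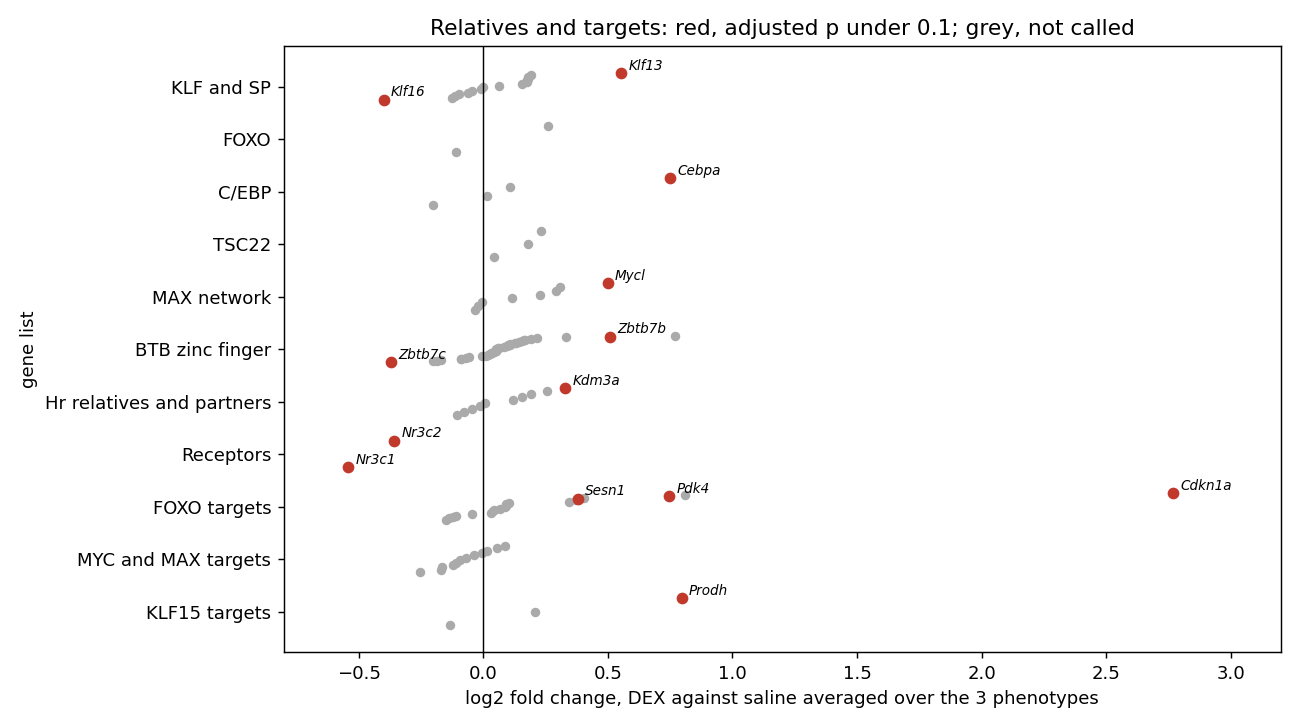
Log2 fold change of DEX over saline, averaged over the 3 phenotypes, for each gene of the family and target lists (1 row per list). Red points passed a limma adjusted p under 0.1 and are named, grey points did not, and Cdkn1a lies farthest right at 2.77.

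Within single phenotypes each of the 3 comparisons called 2 list genes higher and 1 lower. The shares over all genes were 1.0% higher and 0.262% lower in controls, 0.579% and 0.124% in PS, and 0.538% and 0.152% in AS. Cdkn1a rose in each (2.77, 2.80 and 2.74 in controls, PS and AS). Klf13 rose in controls (0.78) and AS (0.67) and had 0.22 in PS, Cebpa rose in PS (1.01), Klf16 fell by 0.56 on the log2 scale in controls, and Nr3c1 fell in PS (-0.61) and AS (-0.72) and had -0.29 in controls. None of the list genes passed in an interaction or in a stress comparison, so these differences between phenotypes were not shown.

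How far the members moved together among mice of the same group was described with deviations of log2 values from the group mean. Over all 16 libraries the 28 member pairs had Pearson r of 0.546 to 0.981, which the shared treatment sets. Within groups r ran from -0.41 to 0.74 with a median of 0.36, and 8 of the 28 pairs were above 0.5. Hr and Foxo3 (0.74), Hr and Mxd4 (0.63), Klf15 and Mxd4 (0.61) and Tsc22d3 and Klf9 (0.59) were the closest pairs, while Klf9 and Foxo3 (-0.41) and Hr and Klf9 (-0.27) ran in opposite directions. The 16 points of each pair share library, dissection and size factor, and no test was made of them. The share of all gene pairs above 0.5 was not counted, so nothing is read from the count of 8.

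**Figure D5:**
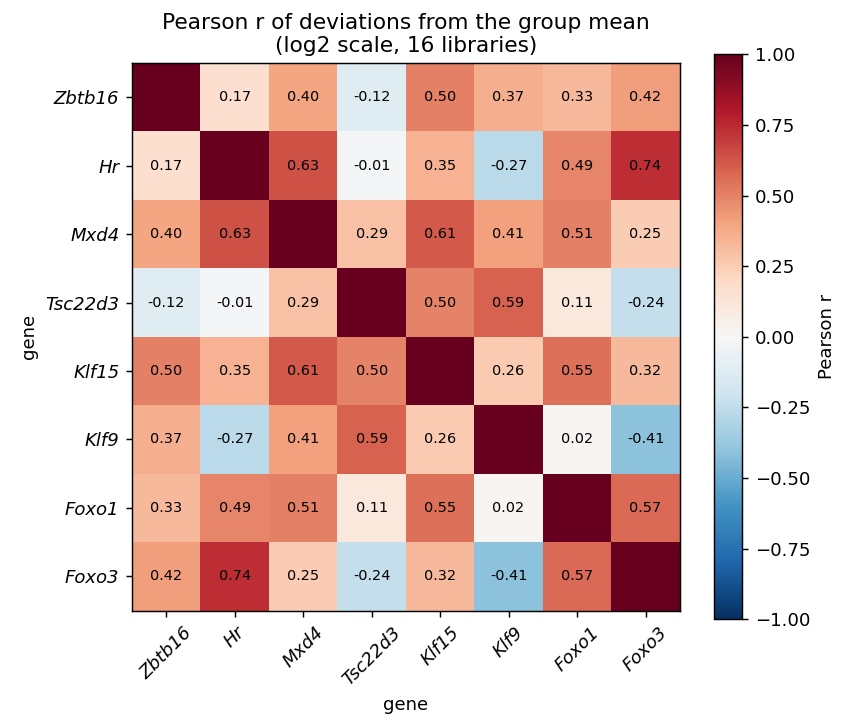
Pearson r between members of the deviations from the group mean (log2 scale, 16 libraries), with red for positive and blue for negative values. Hr and Foxo3 have the highest value, 0.74, and Klf9 and Foxo3 the lowest, -0.41.

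Some libraries deviated from their group mean in many members, and their part in the pair values was not tested. The library con_dex_116 was below its group mean for all 8 members and PS_dex_64 above for all 8, whereas AS_sal_40 was low for Hr (-0.49), Foxo1 (-0.36), Foxo3 (-0.31) and Zbtb16 (-0.24) and high for Tsc22d3 (0.17) and Klf9 (0.11). PS_dex_64 also had the highest summed level of 6 ependymal markers (10719, against 1008 in PS_dex_6 of the same group) and of the 3 measured choroid plexus markers (1025), and their part in its member values was not tested.

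Some markers of other cell types differed between treatments as well. They were called in the averaged DEX effect at a limma adjusted p under 0.1, where 2.78% of all genes rose and 1.53% fell. The summed level of 6 microglial markers was 4017 to 5436 in saline and 3295 to 3928 in DEX libraries, and 3 of the 6 fell. Of 7 oligodendrocyte markers 3 fell (summed level 128900 to 212322 after saline and 127420 to 178822 after DEX). Of 7 endothelial markers 1 fell, and of 7 astrocyte markers 1 rose. None of 7 serotonin neuron, 6 ependymal and 3 choroid plexus markers passed. Summed astrocyte markers were 53317 to 88179 after saline and 78989 to 87213 after DEX, and endothelial ones 5387 to 9001 and 6097 to 7656. The lowest library of both was con_sal_104, which also had the lowest Zbtb16 (584) and Klf9 (3293). The same library had the highest Tsc22d3 of the saline libraries (4407) and was above its group mean for 4 of the 8 members. All of these markers but 1 of the choroid plexus were above 0 in every library, and their part in the member values was not tested.

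The genes whose pattern over all 16 libraries was most like the mean of the 8 members were Arrdc2 (Pearson r 0.988), Plin4 (0.988), Notch4 (0.984), Pla2g3 (0.982) and Fkbp5 (0.981), the last encoding a cochaperone of the glucocorticoid receptor. Within groups, where treatment is removed, the nearest genes differed from member to member. They were Mib1 (0.919) and Zbtb10 (0.905) for Zbtb16, Spns2 (0.965) and Kifc2 (0.961) for Hr, Calr3 (0.878) and Cbs (0.876) for Tsc22d3, and 5430405H02Rik (0.888) and Hnrnpdl (0.887) for Mxd4. For the KLF factors they were Srsf2 (0.926) and Dmtf1 (0.926) with Klf9 and Tcp11l2 (0.890) and Gramd2 (0.872) with Klf15, and for the forkhead genes Ankrd45 (0.923) and Ganc (0.923) with Foxo1 and Pfkfb3 (0.958) and Tenm3 (0.952) with Foxo3. Each was picked as a maximum over all other genes, from 16 libraries that share depth and dissection, and stands here only as a description. The within-group values hold only 10 degrees of freedom.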

How the data were processed

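Libraries were grouped by their titles (dep1 taken as PS and dep2 as AS, after the study's own naming of its samples) and are named by group and number. The members and gene lists were chosen with earlier results of these data known. The authors trimmed reads with fastp 0.20.1, aligned them with HISAT2 2.2.1 to mm10 (GRCm38), counted with featureCounts of Subread 2.0 (GENCODE vM22) and normalized with DESeq2 1.36.0. The values used are the signal the authors deposited, that is, reads per gene over the size factor of the library. Multiplied by that factor, 100% of the values were whole (tolerance 0.1). The authors' tables of fold changes and p-values were not used.

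log2(normalized count + 1) was fitted in limma 3.58.1 (R 4.3.3) with 6 group means over 16 libraries and eBayes with a trend (10 residual and 3.88 prior degrees of freedom), with Benjamini-Hochberg adjustment over 14504 genes and a call at an adjusted p under 0.1. The added count of 1 understates changes of low genes. The fit was tested on simulated data with changes placed only in the control DEX libraries and the same spread setting for all genes. That test did not cover the stress comparisons, the interactions or the groups of 2 libraries. P-values measure the spread between mice and are two-sided. Alternatives were pseudocounts of 0.1 and 10, a mean of at least 100, TMM scaling, library weights (whose estimation stopped before its convergence tolerance), DESeq2 1.42.0 and edgeR 4.0.16 quasi-likelihood on the whole reads, and the omission of each library. Coordinates and exon lengths are from GENCODE vM21, promoters from RefSeq. Named genes were the members, Nr3c1 and Nr3c2, up to 6 called genes per list by smallest p (with none called, up to 3 of the highest mean), the 5 genes most like the members' mean and the 2 most like each member within groups (mean of at least 100).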

Additional observations from a re-analysis of the deposited data

How the results depend on the processing

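Over 23 alternatives no member value of the DEX effect changed sign (736 values), and no member was called in a stress comparison or an interaction under any of them. Signs changed in 44 of 1104 stress values and 38 of 552 interaction values, all uncalled. The log2 DEX effect in AS moved for Foxo1 to 0.36 with library weights and for Foxo3 to 0.26 without AS_sal_40. List genes called in the averaged effect numbered 13, with 19 for library weights, 17 for DESeq2 and 10 to 16 when a library was left out. No paired analysis was possible because the groups share no replicate numbers.

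The counts of genes called over the table moved more. DESeq2 called 437 for DEX in controls (183 with limma), 187 in PS and 274 in AS (100), and library weights called 529 in PS, 1402 in AS and 1328 for the average (625). In the interactions, limma called 0, and for AS minus PS library weights gave 4 and DESeq2 1. In saline, limma called 0, and DESeq2 gave 4 for PS and 11 for AS against controls and 1 for AS against PS, where library weights gave 2. For AS against control DEX limma called 1, a pseudocount of 0.1 gave 2, a pseudocount of 10, a mean of at least 100 and edgeR gave 0, library weights 14 and DESeq2 12. For AS against PS DEX limma called 0, a pseudocount of 0.1 gave 1, library weights 4 and DESeq2 5. Leaving out a library gave 72 (without con_dex_122) to 289 (without AS_sal_40) in controls, 30 (without PS_sal_68) to 1.2e+02 (rounded, without AS_sal_40) in PS, 11 (without AS_dex_42) to 118 in AS and 356 (without AS_dex_42) to 713 for the average. It gave 0 to 1 for the PS minus controls interaction, 0 to 15 for PS and 0 to 20 for AS against control saline (both without con_sal_102), 0 to 1 for AS against PS saline, 0 to 8 for AS against control DEX and 0 to 6 for AS against PS DEX. The cause was not tested. Omitting a library of PS saline or AS DEX leaves 1 there, assumed to vary like the other groups.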
